A study of Rattus norvegicus with 40 samples.

Results

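The miR-322, miR-503, miR-351 and miR-542 cluster is a group of miRNA hairpins that lie close together on the X chromosome of the rat, with miR-450a beside them. Its members here were the mature miRNAs of miR-322, miR-503, miR-351, miR-542 and miR-450a with either arm suffix, which gave 10 of the 752 miRNAs in the deposited counts, 581 of which had at least 1 read. The cluster was chosen by its values in TBI rats against sham-operated rats in these libraries, so those values are given as a description, and the numbers of members called in that contrast carry no weight of their own. Plasma was drawn from the tail vein of adult male Sprague-Dawley rats on D2 and D9 after lateral fluid-percussion injury (TBI) or a sham operation, and small RNA was sequenced from each sample. Of 20 rats, 4 were sham-operated and 16 had TBI, and each rat gave 2 libraries. Among the TBI rats, 7 had developed epilepsy (TBI+) and 9 had not (TBI−), as judged by 1 month of continuous video-EEG in the sixth month after injury. The TBI+ and TBI− labels therefore describe an outcome that lay months after the blood was drawn. Replicates were separate rats, and SDs and p-values refer to rats, except for p-values of D9 against D2. There the main fit took the 2 libraries of a rat as separate samples, and the fit with the rat as a block paired them.

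Both arms of a miRNA hairpin can give a mature miRNA, named 5p and 3p, and bases 2 to 8 of the mature strand, the seed, guide it to its targets. MiR-322 is the rodent counterpart of human miR-424. MiR-322 and miR-503 are known for promoting cell-cycle exit during the differentiation of muscle cells, and miR-542-3p is known to target the mRNA of survivin, an inhibitor of apoptosis. The 10 members were all matched by name to mature sequences of RefSeq (GRCr8), as were 685 of the 752 miRNAs in the counts. The sequences of the more abundant members and of the scarce rno-miR-503-5p are shown because their seeds differ, with the seed in capitals:
rno-miR-322-5p: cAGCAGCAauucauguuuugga
rno-miR-503-5p: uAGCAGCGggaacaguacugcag
rno-miR-351-5p: uCCCUGAGgagcccuuugagccuga
rno-miR-322-3p: aAACAUGAagcgcugcaaca
rno-miR-503-3p: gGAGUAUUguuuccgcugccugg
rno-miR-542-3p: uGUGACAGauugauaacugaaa
rno-miR-542-5p: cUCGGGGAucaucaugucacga
rno-miR-450a-5p: uUUUGCGAuguguuccuaaugu
The seed of rno-miR-322-5p is that of the miR-15/16 family, which restrains the cell cycle, and it occurred in 4 other miRNAs of the counts. The seed of rno-miR-351-5p is that of the miR-125 family, the relatives of the worm miRNA lin-4, and it occurred in 2 others. The 6 relatives outside the cluster are shown to let the shared seed and the differing 3′ parts be compared:
rno-miR-15b-5p: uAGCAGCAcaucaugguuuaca
rno-miR-16-5p: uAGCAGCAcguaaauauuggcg
rno-miR-195-5p: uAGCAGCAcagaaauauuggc
rno-miR-497-5p: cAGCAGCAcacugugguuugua
rno-miR-125a-5p: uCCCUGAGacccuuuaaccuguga
rno-miR-125b-5p: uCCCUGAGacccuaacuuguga
The seeds of rno-miR-322-3p, rno-miR-503-5p, rno-miR-503-3p, rno-miR-351-3p, rno-miR-542-5p, rno-miR-542-3p and rno-miR-450a-3p occurred in 0 other matched miRNAs of the counts.

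In RefSeq GRCr8 the cluster ran over 5309 bp of the minus strand of chromosome X, from position 137720933 to 137726241, and held 6 hairpins. Mir322 and Mir503 lay 220 bp apart, and Mir503 and Mir351 lay 659 bp apart. A gap of 2861 bp separated Mir351 from Mir542, and 1029 bp separated Mir542 from Mir450b-1, which lay 54 bp from Mir450a1. The lncRNA gene LOC102550366, from position 137724960 to 137729208, spanned Mir351, Mir503 and Mir322 but not the other hairpins. The nearest protein-coding genes within 50000 bp were Hprt1 on one side and Plac1 on the other. MiR-450b was outside the rule by name, and its 5p arm shared its first 20 bases with rno-miR-450a-5p:
rno-miR-450a-5p: uUUUGCGAuguguuccuaaugu
rno-miR-450b-5p: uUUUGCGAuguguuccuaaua
The ratio of rno-miR-450b-5p reads to rno-miR-450a-5p reads lay between 1.80 and 2.00 in the 40 libraries, with a median of 1.96, so these miRNAs were not told apart and rno-miR-450a-5p stands for both.

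**Figure D1:**
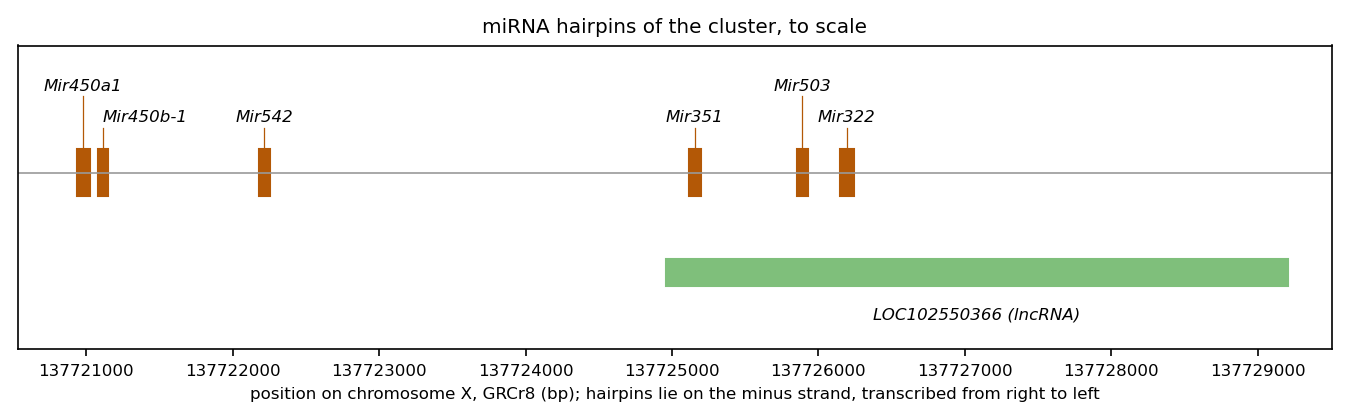
Positions of the 6 miRNA hairpins of the cluster and of the lncRNA LOC102550366 on chromosome X in GRCr8, in bp and to scale. Mir351, Mir503 and Mir322 lie inside the lncRNA gene, and Mir450a1, Mir450b-1 and Mir542 lie outside it.

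The authors counted reads on mature miRNAs, and CPM here means reads per 1000000 reads of the library. The D2 libraries had totals of 976548 ± 398143 reads in the 4 sham-operated rats and 1307075 ± 590787 reads in the 16 TBI rats (SD). The D9 libraries had 1275686 ± 706121 reads in TBI rats but only 215756 ± 98315 in sham-operated rats (SD, same rats). The D9 sham libraries held 140636, 162125, 202059 and 358202 reads in rats 1 to 4. In these libraries 3 reads corresponded to 21.3, 18.5, 14.8 and 8.38 CPM, against 1.17 to 7.42 CPM over the D2 libraries. These floors take in counting error alone, because PCR copies of 1 molecule are counted more than once. Sham rat 2 stood apart on D9 in rno-miR-503-5p and rno-miR-542-5p, and the D9 folds of the members in all libraries are given with and without it. The numbers in the library labels, whose meaning is not stated, were split after seeing the data into 3 runs by the order in which groups repeat along them, and the sham libraries belonged to run 1 on D2 and run 3 on D9.

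Plasma levels of the 10 members differed widely, and the arm that dominated differed between the hairpins. Rno-miR-351-5p was the most abundant member, with a mean of 1476 CPM over the 40 libraries, and it ranked 57 among the 581 miRNAs with reads. Rno-miR-322-3p followed with 725 CPM (rank 72) and rno-miR-450a-5p with 563 CPM (rank 83). The middle group held rno-miR-542-3p with 133.7 CPM, rno-miR-322-5p with 91.6 CPM, rno-miR-503-3p with 77.5 CPM and rno-miR-542-5p with 52.6 CPM. At the lower end, rno-miR-351-3p had 6.91 CPM and rno-miR-503-5p 5.45 CPM, and rno-miR-450a-3p had 4 reads in all 40 libraries together. The mean of rno-miR-503-5p was raised by sham rat 2 on D9, which had 123 CPM. Its group means were 4.02 CPM in sham-operated rats on D2, and 2.96 and 1.95 CPM in TBI rats on D2 and D9. Of the 10 members, 7 had a mean of at least 10 reads per library. Neighbours in this order overlapped in single libraries. In TBI rats on D2, rno-miR-322-5p lay at 90.1 ± 22.9 CPM and rno-miR-503-3p at 82.6 ± 30.8 CPM (SD, n = 16), a difference smaller than the spread. In sham-operated rats these 2 had the reverse order, with means of 110.3 and 143.6 CPM on D2 and 69.5 and 92.4 CPM on D9. Without sham rat 2 the D9 means were 39.2 and 82.1 CPM.

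The 5p arm made up 99.5% of miR-351 reads and almost all miR-450a reads in TBI rats on D2. The miR-322 hairpin gave the opposite picture, with 9.78% of its reads on the 5p arm, which carries the miR-15/16 seed. In miR-503 the 5p share was 3.35%, and in miR-542 it was 31.4%. Summed over the 10 members, the cluster had 5016 ± 1157 CPM in the 4 sham-operated rats on D2 and 3016 ± 561 CPM in the 16 TBI rats (SD). On D9 the sum was 4364 ± 1631 CPM in sham-operated rats (SD, n = 4), 4482 ± 1977 CPM without rat 2 (SD, n = 3), and 2471 ± 686 CPM in TBI rats (SD, n = 16). Rno-miR-351-5p contributed between 43.5% and 52.5% of the sum on average in sham-operated rats and in all TBI rats on each day, and 42.2% in TBI− rats on D2. The share of rno-miR-322-3p in TBI rats was 28.7 ± 4.29% on D2 and 20.1 ± 6.24% on D9 (SD, n = 16).

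The counts of several members had a common divisor, which bears on what 1 read means for them. Counts of rno-miR-322-5p were even in 39 of 40 libraries, against 26 of 40 for rno-miR-322-3p, and those of rno-miR-503-5p were even in all 25 libraries with reads. Rno-miR-351-3p was even in 29 of 31 libraries and rno-miR-503-3p in 33 of 40. Counts of rno-miR-542-3p were multiples of 3 in 35 of 40 libraries, and those of rno-miR-542-5p in 27 of 39 libraries with reads. Of the 394 miRNAs with reads in at least 20 libraries, 12 had even counts in at least 90% of these libraries, and 2 had multiples of 3 in at least 80%. The origin of the multiples was not tested. Nor was their part in the level of rno-miR-322-5p, its share of the hairpin and the 5p share of miR-542.

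On D2, TBI rats had lower plasma levels than sham-operated rats for most abundant members, and rno-miR-351-5p was the clearest. Its level was 2662, 3357, 2261 and 1695 CPM in sham rats 1 to 4. In TBI+ rats it lay between 852 and 2234 CPM with a median of 1325, and in TBI− rats between 879 and 1563 CPM with a median of 1174. Sham-operated rats were high, and 15 of 16 TBI rats lay below the lowest of them, so the groups overlapped through 1 TBI+ rat. The log2FC of TBI against sham was −0.80 (SE 0.20). In plasma, less RNA released per cell and fewer cells releasing it cannot be told apart.

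Rno-miR-542-3p, the miRNA known to target survivin, had 237, 163.6, 183 and 149 CPM in sham rats 1 to 4 on D2. It lay between 91.7 and 170.2 CPM with a median of 102.02 in TBI+ rats, and between 57.1 and 138.3 CPM with a median of 76.1 in TBI− rats. Again 15 of 16 TBI rats lay below the lowest sham-operated rat, and TBI+ rat 1 lay among the sham-operated rats. The log2FC was −0.74 (SE 0.22). The scarce rno-miR-351-3p had 26.9, 26.0, 17.9 and 13.5 CPM in sham rats 1 to 4 and between 0 and 17.9 CPM in TBI rats with a median of 5.42, which left 15 of 16 TBI rats below the lowest sham-operated rat. Its log2FC was −1.54 (SE 0.48), from counts of at most 34 reads per sham library.

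For the members of the miR-322, miR-503 and miR-450a hairpins with a mean of at least 10 reads, the D2 log2FC was below 0. None of these members passed the test. Rno-miR-322-3p had 1514, 1375, 1494 and 845 CPM in sham rats 1 to 4 and between 481 and 1302 CPM in TBI rats with a median of 843. Sham rats 1 to 3 lay above all 16 TBI rats, whereas sham rat 4 lay in their middle. Its log2FC was −0.47 (SE 0.20). Rno-miR-503-3p had 183, 182, 139.98 and 69.1 CPM in sham rats 1 to 4 and between 39.1 and 139.6 CPM in TBI rats with a median of 77.4. The groups overlapped through sham rat 4, and the log2FC was −0.67 (SE 0.28). Rno-miR-450a-5p had 762, 808, 659.7 and 531 CPM in sham-operated rats and between 385 and 616 CPM in TBI rats, with 12 of 16 TBI rats below the lowest sham-operated rat and a log2FC of −0.34 (SE 0.17). Rno-miR-322-5p, with the seed of miR-15/16, had 144.7, 91.7, 119.1 and 85.6 CPM in sham-operated rats and between 53.7 and 127.02 CPM in TBI rats. Of 64 pairs of 1 TBI and 1 sham-operated rat, the TBI rat lay lower in 41. This was the fewest among the 7 members with a mean of at least 10 reads. The log2FC of rno-miR-322-5p was −0.16 (SE 0.21). Of the 16 TBI rats, 5 lay below the lowest sham-operated rat, against 4 for rno-miR-542-5p.

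Rno-miR-542-5p had a log2FC of −0.38 on D2 (SE 0.29), with 65.6, 73.4, 84.9 and 31.5 CPM in sham-operated rats and 45.3 ± 18.3 CPM in TBI rats (SD, n = 16). Rno-miR-503-5p had −0.10 (SE 0.87), from at most 6 reads per sham library, and rno-miR-450a-3p had too few reads for a fold to be given. Over the 10 members the median log2FC was −0.43, against 0.09 over the 565 miRNAs tested, and over the 7 members with a mean of at least 10 reads it was −0.47, against 0.03 over 274 such miRNAs. RLE scaling moved the median of all miRNAs to 0.15, and total count scaling moved it to −0.02. In edgeR's quasi-likelihood test, 3 of 10 members had an adjusted p below 0.05 on D2, namely rno-miR-351-5p, rno-miR-351-3p and rno-miR-542-3p, against 6.19% of all miRNAs tested. Rno-miR-351-5p was not called without sham rat 2, in the shared run or with the replicate block. That block used the animal number, which does not pair rats across groups, so a call lost with it says little. The calls of rno-miR-542-3p and rno-miR-351-3p ended with RLE scaling, in the shared run and with the replicate block, and also without sham rat 1, 2 or 3 for rno-miR-542-3p and without any 1 sham-operated rat for rno-miR-351-3p. Their log2FC was −0.67 and −1.34 with the block, −0.75 and −1.36 without sham rat 2, and −0.54 and −1.14 in the shared run. With the block the log2FC of rno-miR-351-5p was −0.73. Without sham rat 2 the log2FC of rno-miR-351-5p was −0.57, and without sham rat 4 it was −0.97. Within run 1, with 4 sham-operated and 4 TBI+ rats, its level was 2493 ± 699 CPM in sham-operated rats and 1473 ± 579 CPM in TBI+ rats (SD, n = 4 each), and the log2FC was −0.72. For rno-miR-542-3p the log2FC in that run was −0.54, for rno-miR-322-3p −0.59 and for rno-miR-450a-5p −0.47.

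**Figure D2:**
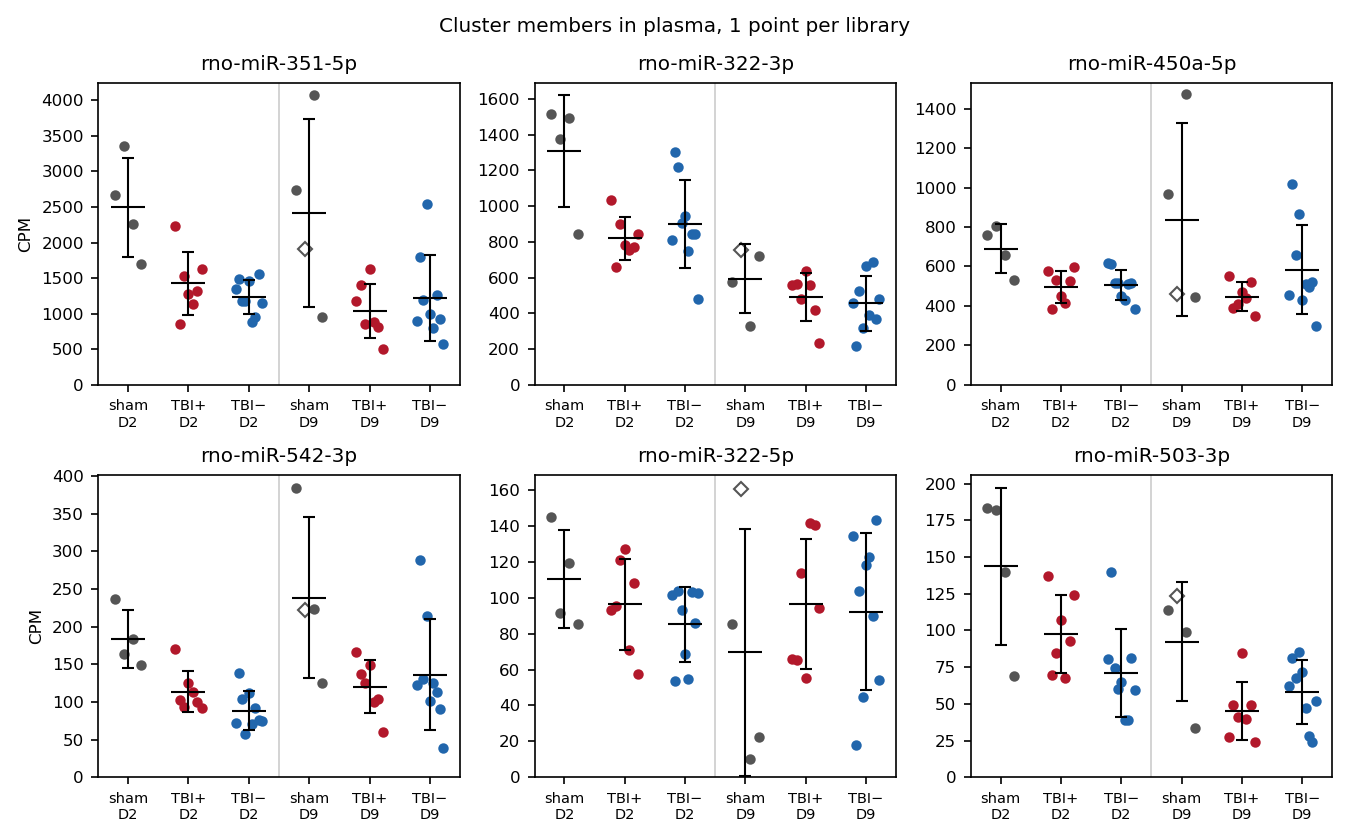
CPM of 6 cluster members in each library, with 1 point per rat, by group and day (4 sham-operated, 7 TBI+ and 9 TBI− rats). Bars give mean ± SD, and the open diamond is sham rat 2 on D9; rno-miR-322-3p had a mean of 865 CPM on D2 and 472 CPM on D9 in TBI rats.

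On D9 the SD between sham-operated rats was larger than on D2 for rno-miR-351-5p (1324 against 699 CPM), rno-miR-542-3p and rno-miR-450a-5p. It was smaller for rno-miR-322-3p (194 against 314 CPM) and rno-miR-503-3p (40.5 against 53.6 CPM). The groups overlapped on D9 for the members described. Rno-miR-351-5p had 2745, 1906, 4073 and 952 CPM in sham rats 1 to 4, and between 509 and 1622 CPM with a median of 883 in TBI+ rats. In TBI− rats it lay between 580 and 2542 CPM with a median of 1001. Sham rat 4 lay inside the TBI range, and 8 of 16 TBI rats lay below it. The log2FC was −0.97 (SE 0.32), and without sham rat 2 it was −1.26. Rno-miR-542-3p had 384, 222, 223 and 125.6 CPM in sham-operated rats and between 38.7 and 289 CPM in TBI rats with a median of 124, with a log2FC of −0.79 (SE 0.34) and −0.97 without sham rat 2. Of these TBI rats, 9 lay below the lowest sham-operated rat.

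Rno-miR-450a-5p had 967, 463, 1475 and 444 CPM in sham-operated rats on D9 and between 299.5 and 1018 CPM in TBI rats, and its log2FC was −0.56 (SE 0.30) with sham rat 2 and −0.94 without it. Rno-miR-503-3p had 114, 123, 99.0 and 33.5 CPM in sham-operated rats and between 24.0 and 85.5 CPM in TBI rats. Its log2FC was −0.71 (SE 0.37) with sham rat 2 and −0.69 without it, and sham rats 1 to 3 lay above all TBI rats. Rno-miR-322-3p had 576, 753, 327 and 720.3 CPM in sham-operated rats and between 217 and 688 CPM in TBI rats, so that most TBI rats lay within the sham range. Its log2FC was −0.24 (SE 0.28) and −0.22 without sham rat 2. The scarce rno-miR-351-3p had reads in sham rats 2 and 4 only, with 18.5 and 16.8 CPM, and had no read in 5 of 16 TBI rats, and its log2FC was −1.23 (SE 0.88) with sham rat 2 and −0.92 without it.

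For rno-miR-503-5p and rno-miR-542-5p 1 library decided the sign of the D9 value. Rno-miR-503-5p had 20 reads in sham rat 2, or 123 CPM, and 0 reads in sham rats 1, 3 and 4, where 3 reads corresponded to 21.3, 14.8 and 8.38 CPM. In TBI rats it lay between 0 and 8.14 CPM, with no read in 7 of 16 rats. The log2FC of −3.74 (SE 0.92) was thus set by sham rat 2, and without it all sham libraries were at 0 and the fitted value turned to 4.13, which depends on the prior count and is no bound. Rno-miR-542-5p had 0, 241, 29.7 and 25.1 CPM in sham rats 1 to 4 and between 9.03 and 93.2 CPM in TBI rats with a median of 48.0. Its log2FC was −0.34 (SE 0.53) with sham rat 2 and 1.37 without it, since 14 of 16 TBI rats lay above the highest of the other sham-operated rats. Rno-miR-322-5p had 85.3, 160.4, 9.90 and 22.3 CPM in sham rats 1 to 4, from 12, 26, 2 and 8 reads, and between 18.1 and 143 CPM in TBI rats with a median of 99.0. Its log2FC was 0.62 (SE 0.50) with sham rat 2 and 1.40 without it, and without that rat 10 of 16 TBI rats lay above the highest sham-operated rat. Over 12 settings this log2FC lay between 0.24 and 1.40. Unlike rno-miR-351-5p and rno-miR-542-3p, rno-miR-322-5p did not lie lower in TBI rats on D9.

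Over the 10 members the D9 median log2FC of TBI against sham was −0.63, against 0.30 over the 541 miRNAs tested, and over the 7 members with a mean of at least 10 reads it was −0.56, against 0.13 over 274 such miRNAs. Without sham rat 2 the median over the 10 members was −0.45, against 0.38 over all miRNAs tested, and over the 7 members it was −0.69. The median of all miRNAs on D9 was 0.12 with RLE scaling and −0.38 in DESeq2. Of the 10 members 1 had an adjusted p below 0.05 in edgeR, rno-miR-503-5p, against 3.51% of all miRNAs tested, and without sham rat 2 neither it nor any other miRNA did, where 70 of 541 had an unadjusted p below 0.05 and DESeq2 called 17. Rno-miR-351-5p was not called in the edgeR fit of all 20 libraries but was called in 6 of 12 settings on D9. These were DESeq2 with and without sham rat 2, RLE scaling, total count scaling, the minimum count, and edgeR without sham rat 4. Its log2FC in DESeq2 was −1.19 with sham rat 2 and −1.25 without it. Within run 3, with 4 sham-operated rats, among them rat 2, and 4 TBI+ rats, rno-miR-351-5p had 2419 ± 1324 CPM in sham-operated rats and 1264 ± 331 CPM in TBI+ rats (SD, n = 4 each), and the log2FC was −0.96. In the same run the log2FC was −0.71 for rno-miR-542-3p, −0.90 for rno-miR-450a-5p and −0.04 for rno-miR-322-3p.

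The TBI+ and TBI− groups were each set against the same 4 sham-operated rats, so their values share controls and are given side by side. On D2 the log2FC of rno-miR-351-5p was −0.75 in TBI+ rats (SE 0.24) and −0.85 in TBI− rats (SE 0.23). For rno-miR-542-3p it was −0.60 in TBI+ rats (SE 0.25) and −0.87 in TBI− rats (SE 0.24). For rno-miR-503-3p it was −0.49 in TBI+ rats (SE 0.32) and −0.83 in TBI− rats (SE 0.30). Rno-miR-322-3p had the reverse order, with −0.59 in TBI+ rats (SE 0.23) and −0.38 in TBI− rats (SE 0.22). On D9 rno-miR-351-5p had −1.09 in TBI+ rats (SE 0.37) and −0.87 in TBI− rats (SE 0.36), or −1.38 and −1.17 without sham rat 2. Rno-miR-450a-5p had −0.77 in TBI+ rats (SE 0.34) and −0.41 in TBI− rats (SE 0.33) on D9, or −1.14 and −0.80 without sham rat 2. Rno-miR-322-5p had 0.68 in TBI+ rats (SE 0.54) and 0.58 in TBI− rats (SE 0.52) on D9, or 1.46 and 1.36 without sham rat 2.

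Whether the cluster differed early between rats that later developed epilepsy and those that did not was tested directly, in a contrast that the choice of the cluster did not use. In edgeR 0 of 10 members passed on D2, against 0% of the 565 miRNAs tested, 38 of which had an unadjusted p below 0.05, and DESeq2 called 0 with 26 below that value. On D9 again 0 of 10 members passed, against 0% of 541 miRNAs, 22 of which had an unadjusted p below 0.05, and DESeq2 called 0 with 12 below it. Rno-miR-351-5p had 1425 ± 439 CPM in TBI+ rats (SD, n = 7) and 1241 ± 239 CPM in TBI− rats (SD, n = 9) on D2, with a log2FC of 0.10 (SE 0.20, edgeR adjusted p = 0.965). On D9 it had 1037 ± 385 CPM in TBI+ rats (SD, n = 7) and 1222 ± 602 CPM in TBI− rats (SD, n = 9), with a log2FC of −0.22 (SE 0.31, edgeR adjusted p = 0.959). The groups overlapped on both days. Among the 7 members with a mean of at least 10 reads, the log2FC lay between −0.22 for rno-miR-322-3p and 0.34 for rno-miR-503-3p on D2. On D9 it lay between −0.35 for rno-miR-450a-5p and 0.44 for rno-miR-542-5p. The median over the 10 members was −0.01 on D2, against −0.05 over all miRNAs tested, and −0.16 on D9, against −0.01.

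With the cluster sum the outcome groups lay close together as well. The sum was 3104 ± 674 CPM in TBI+ rats (SD, n = 7) and 2946 ± 488 CPM in TBI− rats (SD, n = 9) on D2, and 2305 ± 569 CPM and 2599 ± 772 CPM on D9. The spread between rats exceeded these differences. Within run 2 on D2, rno-miR-351-5p had 1362 ± 251 CPM in TBI+ rats (SD, n = 3) and 1327 ± 149.2 CPM in TBI− rats (SD, n = 5). Within run 1 on D9 it had 735 ± 199 CPM in TBI+ rats (SD, n = 3) and 1400.1 ± 779 CPM in TBI− rats (SD, n = 5). The other runs held a single outcome group on each day.

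Between D2 and D9 in TBI rats, rno-miR-322-3p and rno-miR-503-3p fell, and the other members did not pass the test. Whether members differed from each other in this change was not tested. Rno-miR-322-3p lay between 481 and 1302 CPM on D2 with a median of 843, and between 217 and 688 CPM on D9 with a median of 481. It was lower on D9 in 15 of 16 rats, the median log2 change over the 16 rats was −0.89, and in the remaining rat it was 0.00. In the fit without pairing the log2FC was −0.96 (SE 0.15, edgeR adjusted p = 1.6e-06). Rno-miR-503-3p had a median of 77.4 CPM on D2 and 49.1 CPM on D9, and it was lower on D9 in 13 of 16 rats. Its log2FC was −0.77 (SE 0.20, edgeR adjusted p = 0.0020). All 7 TBI+ rats had less of both miRNAs on D9 than on D2, as did 8 of 9 TBI− rats for rno-miR-322-3p and 6 of 9 for rno-miR-503-3p, a difference between the groups that was not tested.

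These calls held with the rat as a block that pairs the 2 libraries of each rat, where the log2FC was −0.96 for rno-miR-322-3p (edgeR adjusted p = 3.0e-06, with 1.1e-09 to 2.3e-05 over the settings) and −0.76 for rno-miR-503-3p (edgeR adjusted p = 0.0017, with 0.0017 to 0.0081 over the settings). Within each run of library numbers, the D2 and D9 libraries came from different rats, apart from TBI− rat 5 in run 2. In the other TBI rats the day therefore changed together with the run. In run 1, rno-miR-322-3p had 844 ± 160.2 CPM on D2 (SD, n = 4) and 401 ± 129.8 CPM on D9 (SD, n = 8). In run 2 its means were 944 ± 207 CPM on D2 (SD, n = 8) and 527 ± 171.96 CPM on D9 (SD, n = 4), and in run 3 they were 730 ± 171.5 CPM (SD, n = 4) and 559 ± 64.2 CPM (SD, n = 4). The D9 mean was thus the lower of the pair in each run. For rno-miR-503-3p the means were 99.6 and 57.7 CPM in run 1, 88.0 and 42.8 CPM in run 2, and 54.8 and 50.5 CPM in run 3. With the run as a term, added after seeing the data, the log2FC was −0.87 for rno-miR-322-3p and −0.79 for rno-miR-503-3p, or −0.87 and −0.82 with the D2 library of TBI− rat 6, whose number lay between the last of run 2 and the rest of run 3, put in run 2.

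The remaining members had a log2FC between −0.84 and 0.29 in TBI rats, and none passed. The most abundant member, rno-miR-351-5p, had 1321 ± 341 CPM on D2 and 1142 ± 511 CPM on D9 (SD, n = 16), with a log2FC of −0.29 (SE 0.17, edgeR adjusted p = 0.199) and lower values on D9 in 10 of 16 rats. Rno-miR-542-3p had 99.5 ± 28.6 CPM on D2 and 129 ± 58.5 CPM on D9 (SD, n = 16), with a log2FC of 0.29 (SE 0.18, edgeR adjusted p = 0.228) and higher values on D9 in 11 of 16 rats. Rno-miR-322-5p was higher on D9 in 8 of 16 rats and had a log2FC of 0.03 (SE 0.19, edgeR adjusted p = 0.922), and rno-miR-450a-5p was likewise split at 8 of 16 with a log2FC of −0.02 (SE 0.14, edgeR adjusted p = 0.942). The sign of the small value of rno-miR-450a-5p differed between scalings. Thus 2 of 10 members passed, both lower on D9, against 30.2% of the 572 miRNAs tested in either direction and 19.4% called lower on D9, so the share of members called was near that of all miRNAs. The median log2FC over the 10 members was −0.16, against −0.01 over all miRNAs tested.

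Sham-operated rats had the surgery with a craniotomy, which according to the paper can itself injure the brain, but no fluid-percussion injury. They showed how the members varied between the days after that surgery. The sham libraries of D2 and D9 lay in different runs of library numbers and differed in depth, so day, run and depth cannot be told apart there. Rno-miR-322-3p was lower on D9 in 4 of 4 sham-operated rats, with a log2FC of −1.16 (SE 0.40, edgeR adjusted p = 0.0908) that did not pass. Without sham rat 2 the log2FC was −1.16 as well. Rno-miR-503-3p was also lower on D9 in 4 of 4 sham-operated rats, with a log2FC of −0.63 (SE 0.51, edgeR adjusted p = 0.6002). Rno-miR-351-5p was lower in 2 of 4 rats, and its log2FC was 0.00 (SE 0.40, edgeR adjusted p = 0.998). In edgeR 0 of 9 members with reads passed, against 4.68% of the 491 miRNAs tested, 82 of which had an unadjusted p below 0.05, and DESeq2 called 15 miRNAs. With the rat as a block, edgeR called 11 of the 491 miRNAs in place of 23. Rno-miR-503-5p had a log2FC of 2.95 with sham rat 2 and −4.53 without it, and rno-miR-542-5p had 0.18 with that rat and −1.52 without it. Whether TBI and sham-operated rats differed in the change from D2 to D9 was not tested.

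Rno-miR-322-5p did not fall with rno-miR-322-3p as a group, and it varied within rats, with a log2 change from D2 to D9 between −1.57 and 1.17. The balance of the arms of the miR-322 hairpin was measured as the log2 ratio of 5p to 3p reads with 0.5 reads added to each, which does not depend on library scaling. It was −3.27 ± 0.57 on D2 and −2.41 ± 0.75 on D9 in the 16 TBI rats (SD, n = 16). The 5p share of pooled miR-322 reads was 9.78% on D2 and 18.6% on D9. The ratio was higher on D9 in 13 of 16 rats, and the change per rat was 0.86 ± 1.00, from −0.92 in TBI− rat 9 to 2.55 in TBI+ rat 7. It differed from 0 in an exact sign-flip permutation test over rats (two-sided, p = 0.0049, and p = 0.0098 adjusted for the 2 hairpins tested). Besides TBI− rat 9, the ratio was lower on D9 in TBI+ rats 2 and 4. In TBI+ rats the ratio was −3.12 ± 0.46 on D2 and −2.37 ± 0.85 on D9 (SD, n = 7), and in TBI− rats −3.39 ± 0.65 and −2.44 ± 0.72 (SD, n = 9).

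**Figure D3:**
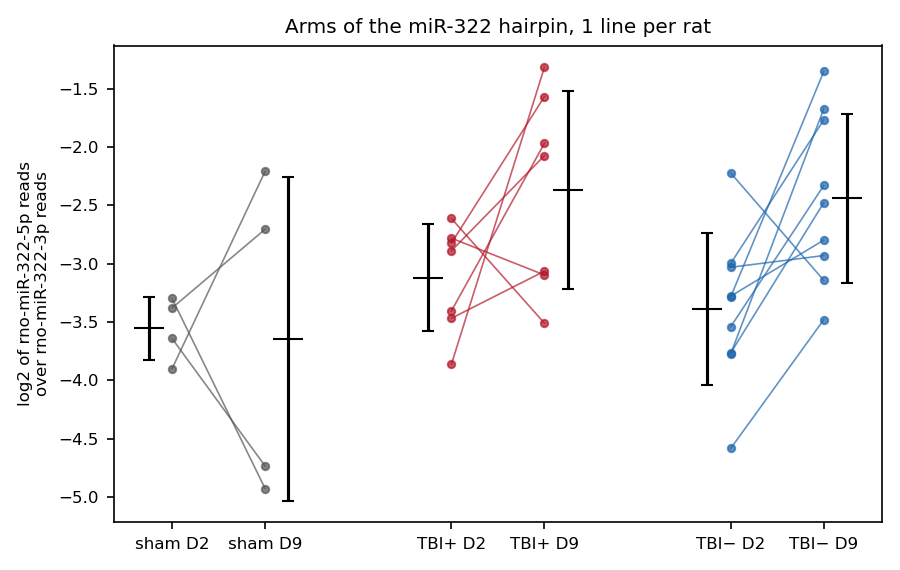
Log2 ratio of rno-miR-322-5p reads to rno-miR-322-3p reads on D2 and D9, with 1 line per rat and mean ± SD beside the points. The ratio was higher on D9 in 13 of 16 TBI rats, and the 4 sham-operated rats went both ways.

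Within the runs of library numbers, which held mostly different rats on D2 and D9, the arm ratio did not differ alike between the days. In run 1 the mean ratio of TBI rats was −2.94 on D2 (n = 4) and −2.30 on D9 (n = 8), and in run 2 it was −3.53 on D2 (n = 8) and −2.11 on D9 (n = 4). In run 3 it was −3.08 ± 0.65 on D2 and −2.94 ± 0.61 on D9 (SD, n = 4 each), a difference smaller than the spread. With the D2 library of TBI− rat 6 put in run 2, the D2 mean of run 3 was −2.85 (n = 3), above that of D9. The 4 rats with D9 libraries in run 3 were TBI+ rats 1 to 4, whose changes were 0.40, −0.32, 0.82 and −0.90. TBI− rat 5 had both libraries in run 2, and its change was 1.29. The part of the run in this result was not tested beyond these values. In the 4 sham-operated rats the changes were 0.68, 1.69, −1.09 and −1.63, with 12, 26, 2 and 8 reads of rno-miR-322-5p on D9. These changes went both ways, and the part of the low depth was not tested.

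The miR-542 hairpin, the other one with enough reads on both arms, served as a comparison. Its arm ratio was −1.17 ± 0.70 on D2 and −1.33 ± 1.19 on D9 in TBI rats (SD, n = 16), and it was higher on D9 in 8 of 16. The mean change of −0.16 ± 1.39 did not pass (exact sign-flip permutation test, two-sided, p = 0.660), and it was 0.03 in the 15 rats with at least 10 reads on both arms on both days. Whether the miR-322 and miR-542 changes differed was not tested. Over all TBI rats, with the run left aside, the ratio did not separate TBI+ from TBI− rats in either hairpin. The difference for miR-322 was 0.27 on D2 and 0.07 on D9 (p = 0.382 and p = 0.862, two-sided exact permutation tests over 7 and 9 rats). For miR-542 the difference was −0.35 on D2 and 0.53 on D9 (p = 0.332 and p = 0.439 in the same exact tests), and the lowest p adjusted for these 4 comparisons was 0.585. Only run 1 held both outcome groups on D9. There the miR-322 ratio averaged −1.62 among 3 TBI+ rats, with a range of −1.97 to −1.32. Among 5 TBI− rats it averaged −2.70 and ranged from −3.48 to −1.77. On D2 only run 2 held both, where miR-322 means were −3.36 for 3 TBI+ and −3.63 for 5 TBI− rats (SD 0.52 and 0.60). The outcome difference within runs was not tested.

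The miRNAs that share a seed with the cluster showed how much of that seed's plasma pool the cluster supplied. Rno-miR-16-5p had a mean of 28319 CPM over the 40 libraries and rank 10, against 91.6 CPM for rno-miR-322-5p, while rno-miR-15b-5p had 272 CPM, rno-miR-497-5p 284 CPM and rno-miR-195-5p 44.0 CPM. In the miR-125 seed the cluster weighed more, with 1476 CPM of rno-miR-351-5p beside 2553 CPM of rno-miR-125a-5p and 742 CPM of rno-miR-125b-5p. On D2 the log2FC of TBI against sham was 0.29 for rno-miR-125a-5p (SE 0.20) and 0.01 for rno-miR-125b-5p (SE 0.23), beside −0.80 for rno-miR-351-5p. On D9 it was −0.01 for rno-miR-125a-5p and −0.47 for rno-miR-125b-5p, or −0.25 and −0.79 without sham rat 2, beside −0.97 and −1.26 for rno-miR-351-5p. Among the relatives of rno-miR-322-5p, the D2 log2FC was 0.01 for rno-miR-15b-5p (SE 0.24), 0.23 for rno-miR-16-5p (SE 0.25), −0.07 for rno-miR-195-5p (SE 0.29) and −0.33 for rno-miR-497-5p (SE 0.37), beside −0.16 for rno-miR-322-5p. On D9 these 4 had 0.74, 0.65, 0.74 and 0.40, or 1.00, 0.91, 0.71 and 0.75 without sham rat 2, beside 0.62 and 1.40 for rno-miR-322-5p. In these fits they lay above 0 like that member, as did 330 of the 541 miRNAs tested with all sham-operated rats. With the replicate block rno-miR-15b-5p had −0.015. Between D2 and D9 in TBI rats, 4 of the 6 relatives passed in the fit without pairing, against 30.2% of all 572 miRNAs tested. Rno-miR-125a-5p fell by 0.44 (edgeR adjusted p = 0.0323) and rno-miR-125b-5p fell by 0.65 (edgeR adjusted p = 0.0056) on the log2 scale. Rno-miR-15b-5p rose by 0.61 (edgeR adjusted p = 0.0305) and rno-miR-16-5p by 0.50 (edgeR adjusted p = 0.0366), whereas rno-miR-322-5p, with the same seed, had a log2FC of 0.03. With the rat as a block rno-miR-15b-5p did not pass (edgeR adjusted p = 0.0563), and with the run as a term, added after seeing the data, rno-miR-125a-5p (0.0683) and rno-miR-16-5p (0.0507) did not. Rno-miR-125b-5p passed in both. Rno-miR-195-5p had −0.17 and rno-miR-497-5p −0.43, and neither passed. For the relatives, TBI+ against TBI− on each day and D9 against D2 in sham-operated rats gave 0 of 6 calls each in edgeR, against 0%, 0% and 4.68% of all miRNAs tested.

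Across TBI rats some members varied together and others did not, and the likeness of some pairs differed between the days. Likeness was measured as Spearman's rho of log2(CPM + 1) over the 16 TBI libraries of D2 and the 16 of D9, averaged over the days, among 270 miRNAs with a mean of at least 10 CPM, and it is given as a description. The 5 miRNAs most like rno-miR-351-5p were rno-miR-450a-5p (rho 0.66), its near copy rno-miR-450b-5p (0.66), rno-miR-320-3p (0.66), rno-miR-503-3p (0.65) and rno-miR-341 (0.62). Of these, 3 belong to the cluster or its neighbour. Rno-miR-322-5p was unlike its own hairpin: its rho was −0.06 with rno-miR-322-3p, rank 169 of 269, and −0.32 with rno-miR-351-5p, rank 245, the latter −0.11 on D2 and −0.53 on D9. The rho of rno-miR-322-3p with rno-miR-450a-5p was 0.61 on D2 and −0.32 on D9. The 5 miRNAs most like rno-miR-322-5p were rno-miR-26b-5p (0.76), rno-miR-222-3p (0.71), rno-miR-19a-3p (0.68), rno-miR-19b-3p (0.66) and rno-miR-223-3p (0.65), the last an abundant miRNA of myeloid cells. The arms of miR-542 were also unlike each other, with a rho of −0.25. Libraries share their depth and composition in these values, and the levels of rno-miR-322-5p and rno-miR-542-5p rest on few reads.

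Blood cell and tissue miRNAs moved between the same groups and days, and their part in the cluster's values was not tested. Of 6 red blood cell miRNAs listed, 5 were in the counts, with rno-miR-16-5p the most abundant, and their sum in TBI rats was 27963 ± 9600 CPM on D2 and 42173 ± 15621 CPM on D9 (SD, n = 16). In sham-operated rats it was 26087 ± 4353 CPM on D2 and 28444 ± 15056 CPM on D9 (SD, n = 4), or 22951 ± 12610 CPM on D9 without sham rat 2 (SD, n = 3). The haemolysis index, the log2 of rno-miR-451-5p over rno-miR-23a-3p with 1 read added to each, was −0.28 ± 0.64 on D2 and 1.28 ± 0.63 on D9 in TBI rats (SD, n = 16), and its means were −0.52 and 1.13 in sham-operated rats. The 4 of 4 platelet and myeloid miRNAs, led by rno-miR-142-5p, summed to 19902 ± 5185 CPM on D2 and 24901 ± 6019.8 CPM on D9 in TBI rats (SD, n = 16), and to 27113 ± 5611 CPM and 17112 ± 9122 CPM in sham-operated rats (SD, n = 4), or 16412 ± 11040 CPM on D9 without rat 2.

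On D2, where rno-miR-351-5p lay lower in TBI rats, the 2 of 2 lymphocyte miRNAs, led by rno-miR-150-5p, had 31024 ± 12382 CPM in sham-operated rats (SD, n = 4) and 15798 ± 6015 CPM in TBI rats (SD, n = 16). On D9 sham rat 2 stood apart in these miRNAs, with 74739 CPM beside 15366, 8864 and 15748 CPM in sham rats 1, 3 and 4. The D9 mean in sham-operated rats was 28679 ± 30868 CPM with it (SD, n = 4) and 13326 ± 3869 CPM without it (SD, n = 3), beside 23124 ± 8501 CPM in TBI rats (SD, n = 16), so the order of the groups depended on that library. The 2 of 2 cartilage miRNAs, led by rno-miR-140-3p, had 14024 ± 3158 CPM in sham-operated rats (SD, n = 4) and 5963 ± 856 CPM in TBI rats (SD, n = 16) on D2, and 12853 ± 5291 CPM and 6288 ± 1598 CPM on D9, with 10823 ± 4157 CPM in sham-operated rats without rat 2. Of the 4 skeletal muscle miRNAs in the counts, rno-miR-1-3p and rno-miR-133a-3p had 0 reads, and the sum, mostly rno-miR-133b-3p, was 372 ± 289.8 CPM on D2 and 59.4 ± 33.0 CPM on D9 in TBI rats (SD, n = 16). The D2 median in TBI rats was 298 CPM, with TBI+ rat 7 at 1368 CPM. In sham-operated rats the sum was 229 ± 76.5 CPM on D2 and 97.8 ± 35.2 CPM on D9 (SD, n = 4), or 113.9 ± 17.1 CPM on D9 without rat 2 (SD, n = 3). The 3 of 3 brain miRNAs, led by rno-miR-128-3p, summed to 7255 ± 3017 CPM on D2 and 6156 ± 2867 CPM on D9 in TBI rats (SD, n = 16), and to 6305 ± 1586 CPM and 2652 ± 948 CPM in sham-operated rats (SD, n = 4), or 2286 ± 737 CPM on D9 without rat 2. In TBI+ rats the D2 sum was 9450 ± 3190 CPM (SD, n = 7), and in TBI− rats 5549 ± 1395 CPM (SD, n = 9). On D9 the order was reversed, at 5892 ± 3489 CPM for TBI+ and 6361 ± 2485 CPM for TBI−, by less than these SDs. The highest D2 brain sums were those of TBI+ rats 1 to 4, all in run 1, at 11471, 10602, 8281 and 15153 CPM. Within run 2, TBI+ rats 5 to 7 had 6998, 7803 and 5842 CPM, beside 3656 to 7814 CPM over TBI− rats 1 to 5. The part of the run in the D2 gap of the brain list was not tested. A less abundant miRNA of this list, rno-miR-124-3p, had a log2FC of 8.28 in TBI rats against sham-operated rats on D2 (SE 0.95), and it fell by 5.48 on the log2 scale from D2 to D9 in TBI rats (edgeR adjusted p = 1.4e-13). The liver miRNA rno-miR-122-5p had 0 reads in all 40 libraries.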

How the data were processed

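The authors deposited read counts per mature miRNA, made by quality control with FastQC (11.8), trimming with Trimmomatic (0.36), alignment with Bowtie2 and counting with featureCounts (Subread), according to the submitters' processing notes. The members are all miRNAs of miR-322, miR-503, miR-351, miR-542 and miR-450a by name. Named besides are miRNAs sharing a member's seed, cluster neighbours, blood and tissue markers, and the 5 miRNAs most like rno-miR-351-5p and rno-miR-322-5p by mean Spearman's rho. The members and lists were chosen with earlier results of these data known. Comparisons used the quasi-likelihood test of edgeR (4.0.16, R 4.3.3) on TMM-normalized counts, with Benjamini-Hochberg adjusted p-values over all miRNAs with at least 1 read in the libraries fitted, and an adjusted p below 0.05 was called. The SE of an edgeR log2FC was derived from the test, as the absolute log2FC divided by the square root of the quasi-likelihood F statistic. TBI+ and TBI− were compared in a fit over all 20 libraries of the day. Arm ratios used exact permutation tests for hairpins whose arms both had a mean of at least 10 reads. Alternatives were DESeq2 (1.42.0), RLE and total count scaling, a minimum count (filterByExpr), replicate blocks, shared runs of library numbers, and sham rats left out in turn. Labels pair the D2 and D9 libraries of each rat, a pairing that the main fits of D9 against D2 did not use. Animal numbers do not pair rats across groups. The test was tested on simulated data, and 0 pairs of identical libraries were found. Other tools were Python 3.11.15, numpy 2.4.6, pandas 2.3.3, scipy 1.17.1 and matplotlib 3.10.9.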

Additional observations from a re-analysis of the deposited data

Results flagged for a closer look

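Over the members, the cluster sum and the arm ratios of miR-322 and miR-542, 75 groups of 4 to 9 rats were examined, and in 9 of them, all of members, 1 rat lay far from the others of its group, judged by the gap to the nearest rat relative to the whole range of the group. Chance gives about 1 in 20 groups if values follow a normal distribution. CPM with many zeros need not do so, and where the other rats had 0 reads a single read was enough. The 9 groups therefore cannot be read as an excess over chance. In sham rat 2 on D9, rno-miR-503-5p stood at 123 CPM (20 reads) and the other sham-operated rats at 0, and rno-miR-542-5p stood at 241 CPM (39 reads) and the next rat at 29.7 CPM. In TBI+ rat 4 on D9, rno-miR-503-3p stood at 84.4 CPM with the next rat at 49.3 CPM, and rno-miR-503-5p at 7.34 CPM (4 reads) with the next at 2.14 CPM. In TBI− rat 2 on D2, rno-miR-503-3p stood at 139.6 CPM with the next rat at 81.5 CPM. In TBI− rat 7 on D2, rno-miR-542-5p stood at 98.8 CPM with the next rat at 58.4 CPM. In TBI+ rat 1 on D2, rno-miR-542-3p stood at 170.2 CPM with the next rat at 125.03 CPM. For rno-miR-450a-3p a single read gave 1.63 CPM in TBI+ rat 2 and 0.349 CPM in TBI− rat 8 on D9, with the other rats of their groups at 0.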

How the results depend on the processing

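Of 47 recomputed counts of called miRNAs, 37 stayed within 1.5 times the reported count. For TBI against sham on D2 the count was 35, and 21 to 31 with 1 sham-operated rat left out. On D9 it was 19, and 7 with the animal number as a block, 10 in the shared run of library numbers and 0 to 23 with 1 sham-operated rat left out, the 0 being without sham rat 2 (70 at an unadjusted p below 0.05 in edgeR; DESeq2 without that rat, added after seeing the data, called 17). For TBI+ against TBI− on D2 the block by animal number, which does not pair rats across groups, gave 3 in place of 0. For D9 against D2 in sham-operated rats the count of 23 was 15 in DESeq2, 14 with total count scaling, 11 with the rat as a block, 0 of 213 miRNAs left by the minimum count (57 at an unadjusted p below 0.05) and 15 to 28 with 1 rat left out. Of 224 member values of TBI against sham, 210 moved by less than the SD between rats of a group, and 12 changed sign. Without sham rat 2 on D9, rno-miR-503-5p turned to 4.13 (−4.23 to 4.13 with any 1 sham-operated rat left out), 1.13 in DESeq2, and 3.82 in TBI+ and 4.32 in TBI− rats. Without that rat rno-miR-542-5p turned to 1.37, 1.32 in DESeq2, and 1.61 in TBI+ and 1.17 in TBI− rats, the DESeq2, TBI+ and TBI− values being added after seeing the data. On D2 rno-miR-322-5p turned to 0.031 in the shared run and rno-miR-503-5p to 0.70 without sham rat 1, and on D9 rno-miR-450a-3p, with 4 reads in all, turned to −2.14 in DESeq2, or −2.02 there without sham rat 2. Of 241 member values in the tested comparisons, 226 kept direction and side of the threshold. In TBI rats from D2 to D9, rno-miR-322-5p turned to −0.073 with the block, and rno-miR-450a-5p turned to 0.061 in DESeq2, 0.064 with RLE, 0.060 with total count scaling and 0.061 with the minimum count. In sham-operated rats, rno-miR-351-5p turned to −0.045 with total count scaling and −0.20 with the block, and ranged from −0.50 to 0.44 with 1 rat left out. There rno-miR-542-5p turned to −0.67 with the block and ranged from −1.52 to 0.59, rno-miR-450a-5p from −0.21 to 0.76, and rno-miR-503-5p from −4.53 to 4.17, where it passed with some rats left out. Of 8 arm ratio values 7 held, and that of miR-542 between the days turned from −0.16 to 0.026 in rats with at least 10 reads. Rno-miR-503-5p, rno-miR-450a-3p and, in some comparisons, rno-miR-351-3p were removed by the minimum count and have no value there. Apart from the fewer miRNAs or rats that these settings use, the cause was not tested. In the D9 sham libraries 3 reads were 8.38 to 21.3 CPM, and each comparison with TBI rests on 4 sham-operated rats.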
